A study of Mus musculus with 4 samples.

Results

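The RNAs of the small ribosomal subunit proteins were followed as partners of other RNAs in mouse spermatogonial stem cells, before and after differentiation. They were chosen by name, as every RNA called Rps with a number (Rps6k kinase genes left out) or Rpsa, which gave 33 of the 13318 RNAs in the deposited table and 349 of its 56636 RNA pairs. A choice by name also takes in Rps3a2, Rps3a3 and Rps12l1, which are themselves annotated as pseudogenes. The table came from RIC-seq, in which formaldehyde fixes RNA and protein in the cell, micrococcal nuclease cuts the RNA, and ends that lie close together are tagged with biotin and ligated in place. Each value is a count of chimeric reads, reads that join 2 RNA pieces. There were 2 libraries whose genotype label reads Differentiation and 2 control libraries whose label reads WT, all of spermatogonial stem cells, the testis cells that renew themselves and supply sperm production. What set off differentiation, how long it lasted and whether cultures were separate are not known from the labels, so a p-value here speaks of the scatter of 4 libraries that may differ for technical reasons alone.

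Small subunit proteins assemble with 18S ribosomal RNA in the nucleolus into the subunit that binds messenger RNA and reads its codons. Their messenger RNAs begin with a run of pyrimidines, the terminal oligopyrimidine tract, through which growth signals control their translation. Several of their genes also carry small nucleolar RNAs (snoRNAs) in introns, which guide modification or cleavage of ribosomal RNA, and these genes have left many processed pseudogenes in mammalian genomes.

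The start of 4 of these genes is shown because Rps9 and Rps26 are among the RNAs whose contacts rose below, while the contacts of Rps12 and Rps3 turn on the snoRNAs inside them. Each stretch is 60 bases of RefSeq's GRCm38.p6 record, 30 before and 30 after the annotated start, and capitals mark a run of 8 or more C or T within 10 bases of that start. For Rps9 and Rps12 the whole stretch lies inside the gene coordinates given below, so the start used is not the outer end of the gene.
Rps9, chr7:3704011-3704070, plus strand: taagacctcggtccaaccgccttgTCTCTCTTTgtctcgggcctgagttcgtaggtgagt
Rps26, chr10:128626477-128626536, minus strand: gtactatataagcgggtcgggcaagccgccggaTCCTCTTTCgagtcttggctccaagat
Rps12, chr10:23787180-23787239, minus strand: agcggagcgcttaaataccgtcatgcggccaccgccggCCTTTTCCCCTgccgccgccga
Rps3, chr7:99483680-99483739, minus strand: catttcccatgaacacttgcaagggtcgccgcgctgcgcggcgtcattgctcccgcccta
Rps9, Rps26 and Rps12 held such a run, and Rps3 held none in this window. Promoter records matched 22 of the 33 genes, and the run was found in 10 of them (45.5%), against 13.9% of 27025 genes. The motif CCGGAAG, searched on both strands of the same records, was also found in 10 of the 22 (45.5%), against 9.12% of all genes.

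The libraries held 793129 and 1155923 counts with differentiation, against 1209031 and 1400011 in the controls, over pairs that had at least 1 count in all 4 libraries. Marker RNAs moved with the groups. Over the contact totals of the 8 of 18 spermatogonial stem cell markers in the table, 7 were tested and 3 fell, Shisa6, Gfra1 and Foxo1, while Nanos2, Id4, Bcl6b, Lhx1, Eomes, Pax7, Lin28a, Egr4 and T had no entry. Their summed level was 374 to 378 CPM (the count as edgeR scales it to a common library size) with differentiation, against 989 to 1179 in controls. Of 12 tested markers of differentiating spermatogonia and meiosis 5 rose, among them Sycp1, Dmc1 and Smc1b, and 5 of 10 Sertoli cell markers fell. Among 11 markers of fibroblasts and feeders 5 fell, while 1 rose, Tnc, an extracellular matrix gene (log2 change 1.21, edgeR adjusted p = 6.34e-04), and their summed level overlapped, at 1815 and 1948 CPM with differentiation, against 2138 and 1932 in controls. Of all RNAs tested 5.44% rose and 6.75% fell. The part of these cell types in the results below was not tested, and in bulk libraries fewer cells of a type and less RNA per cell cannot be told apart.

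All pairs of an RNA were summed to its contact total, which can move with the level of the RNA as well as with its contacts, and which is not set per length, so different genes' totals are not compared. With differentiation 6 of the 29 tested small subunit RNAs had a higher contact total, among them Rps14, Rps19, Rps9, Rps26 and Rps3a1, by 1.61- to 2.02-fold. This is against 5.44% of all 10993 RNAs tested. None fell, against 6.75% of all RNAs (edgeR's quasi-likelihood F test, Benjamini-Hochberg adjusted p under 0.05), with 1 lower at an unadjusted p under 0.05 and also none by DESeq2. The fitted log2 change, differentiation over control, was above 0 for 23 of the 29, with a median of 0.63 against -0.00071 over all RNAs tested. In 20 RNAs both differentiation libraries lay above both controls and in 5 below them, against 26.1% and 29.1% of all RNAs tested. Rps27a, Rps25, Rps3a3 and Rps12l1 had 6 to 13 counts in all and did not pass the filter on low counts.

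Rps14 (chr18:60774596-60778546, GRCm38.p6 as for all coordinates here), a protein of the platform of the subunit whose human gene is lost in 5q- syndrome, had the most counts of the RNAs that rose. It had 393 and 664 counts with differentiation, against 367 and 348 in controls, or 339 ± 26.9 against 194 ± 26.2 CPM (SD, n = 2 each). Both differentiation libraries lay above both controls, and the log2 change was 0.81 (SE 0.17, edgeR adjusted p = 0.00874). Rps19 (chr7:24884592-24889811), whose human gene is the one most often mutated in Diamond-Blackfan anaemia, had 201 and 407 counts with differentiation, against 185 and 167 in controls, or 192 ± 39.5 against 95.6 ± 16.2 CPM (SD, n = 2 each). Its rise was the largest of the 6, at 1.01 (SE 0.20, edgeR adjusted p = 0.00808).

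Rps9 (chr7:3703954-3706897), which lies near the entry of the messenger RNA channel, had 195 and 371 counts with differentiation, against 181 and 199 in controls (log2 change 0.82, SE 0.18, edgeR adjusted p = 0.0142). Rps26 (chr10:128624529-128626506), at the exit of that channel and also mutated in human Diamond-Blackfan anaemia, had 148 and 243 counts, against 142 and 123 in controls (0.81, SE 0.20, edgeR adjusted p = 0.0229). Rps3a1 (chr3:86137940-86142668), a binding site of initiation factor eIF3 in the subunit, had 110 and 157 counts, against 92 and 109 in controls (0.69, SE 0.20, edgeR adjusted p = 0.0425). Of these calls that of Rps3a1 was lost in the most settings, 6 of 17: with 1 of each set of pairs of identical counts kept its log2 change was 0.44 (edgeR adjusted p = 0.248), and it was also lost without a filter on low counts (0.0642), without Neat1 and Malat1 pairs (0.0530) and with DESeq2 (adjusted p = 0.0815). These 5 calls depended on having both controls: without the first control the edgeR adjusted p lay between 0.0735 and 0.250, and without the second between 0.220 and 0.325, with log2 changes still between 0.62 and 1.19.

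**Figure D1:**
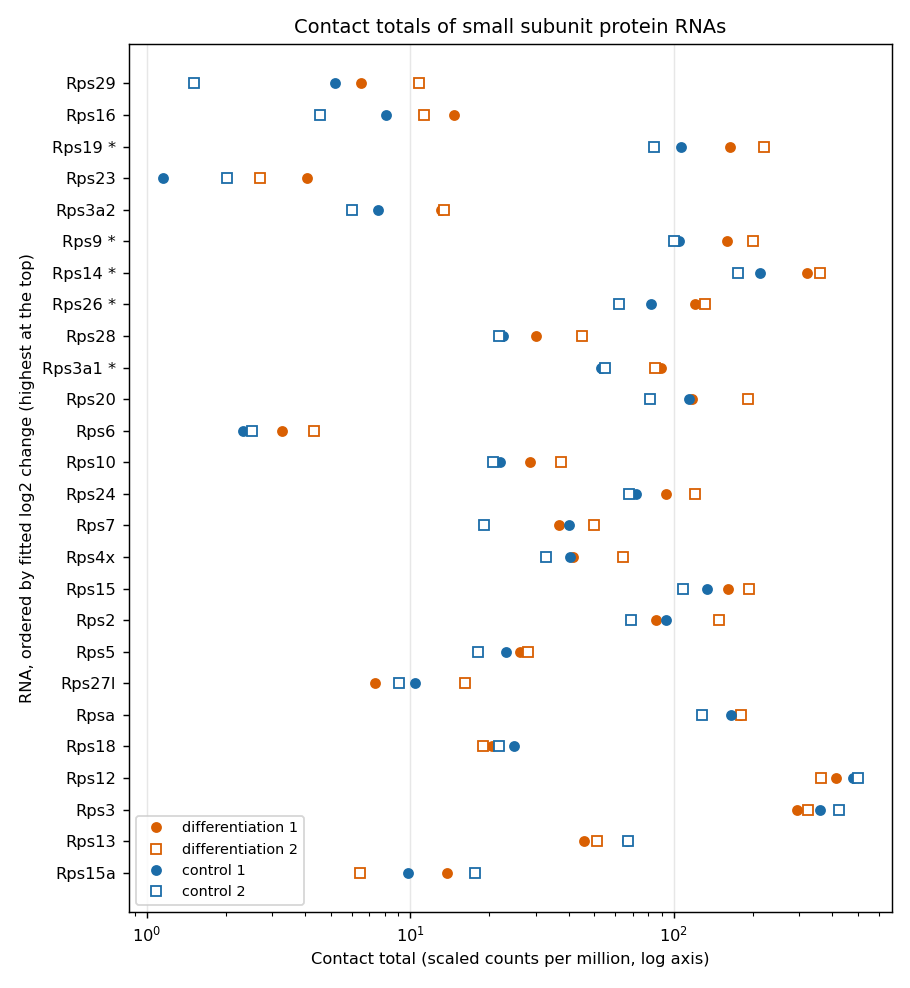
Contact totals of 26 of the 29 tested small subunit protein RNAs in each library, in CPM on a log axis, ordered by fitted log2 change with the highest at the top. Orange points are the 2 differentiation libraries, blue points the 2 controls, and an asterisk marks the 5 RNAs shown with an edgeR adjusted p under 0.05, in all of which both orange points lie right of both blue points.

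Other RNAs with many counts did not share this rise. Rps12 (chr10:23785183-23787383), a protein of the beak of the subunit, had 507 and 674 counts, against 829 and 992 in controls, or 389 ± 35.03 against 490 ± 14.2 CPM (SD, n = 2 each). Rps3 (chr7:99477896-99483709), which lines the messenger RNA entry, acts in DNA repair and is named in the title of the series, had 362 and 599 counts, against 621 and 845 in controls, or 309 ± 19.9 against 392 ± 46.9 CPM. In both the differentiation libraries lay below the controls after scaling, with log2 changes of -0.34 (SE 0.15) for Rps12 and -0.34 (SE 0.16) for Rps3 that did not pass (edgeR adjusted p = 0.177 and 0.190).

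Rpsa, also known as the laminin receptor, had 220 and 335 counts with differentiation, against 285 and 254 in controls (log2 change 0.30, SE 0.18, edgeR adjusted p = 0.315). Both differentiation libraries lay above both controls after scaling, without passing the test. The highest fitted changes belonged to RNAs of few counts. Rps29 had 8 and 20 counts, against 9 and 3 in controls (1.41, SE 0.66, edgeR adjusted p = 0.193), and Rps16 had 18 and 21 counts, against 14 and 9 (1.03, SE 0.50, edgeR adjusted p = 0.207). At the low end Rps15a had 17 and 12 counts, against 17 and 35 (-0.49, SE 0.50, edgeR adjusted p = 0.572), with groups that overlapped, and Rps13 had 56 and 95 counts, against 115 and 133 (-0.46, SE 0.21, edgeR adjusted p = 0.193). The X-linked Rps4x had 51 and 119 counts, against 70 and 65 in controls (0.55, SE 0.27, edgeR adjusted p = 0.220), and the paralog Rps27l had 9 and 30, against 18 and 18 (0.32, SE 0.48, edgeR adjusted p = 0.728), with overlapping groups. Rps6, the protein that S6 kinase phosphorylates, had only 21 counts over the 4 libraries (0.66, SE 0.65, edgeR adjusted p = 0.563).

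Every one of the 349 pairs joined a small subunit RNA to another RNA. None of the 33 had a listed pair with itself, whereas 4836 of the 13318 RNAs (36.3%) had one. Among related lists, 4 of 48 large subunit protein RNAs (8.33%) and 5 of 20 mitochondrial small subunit protein RNAs (25%) had one. Pairs between 2 small subunit RNAs numbered 4.

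Member pairs took 0.524% of all counts (Wilson 95% interval 0.509% to 0.541%) and 0.626% (0.611% to 0.640%) in the differentiation libraries, against 0.455% (0.443% to 0.467%) and 0.429% (0.419% to 0.440%) in the controls. These intervals cover counting error only and not the spread between libraries. No molecular identifiers were used, so duplicate reads may make them too narrow. Of the 349 pairs 189 passed the filter on low counts, and 15 rose, against 1.3% of all 27249 tested pairs between different RNAs, while 5 fell, against 2.25%. The median log2 change of the tested pairs was 0.46, against -0.05 over all tested pairs between different RNAs. The differentiation libraries lay above both controls in 72 pairs, against 20.4% of all such pairs, and below both in 27, against 27.4%.

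Annotated pseudogenes were the main partners. They were the partner with most counts for 17 of the 33 RNAs, and Gm42418 or Gm26917, transcripts that carry ribosomal RNA sequence, for another 11. Pseudogene partners took 39.2% (Wilson 95% interval 37.7% to 40.7%) and 43.3% (42.2% to 44.5%) of member-pair counts in the differentiation libraries, against 32.0% (30.8% to 33.2%) and 26.0% (24.9% to 27.1%) in the controls. The 35 pseudogene pairs reached 22 of the 33 RNAs. Of the 28 tested, 9 rose, the median log2 change was 0.91 and 25 were above 0.

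**Figure D2:**
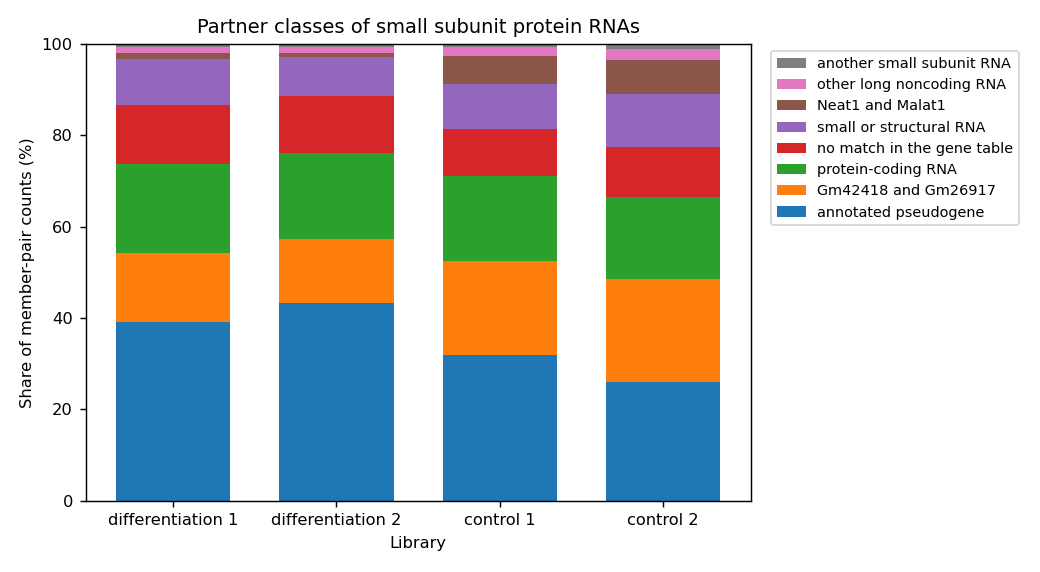
Share of all member-pair counts held by each class of partner RNA, in percent, for the 2 differentiation libraries on the left and the 2 controls on the right. Annotated pseudogenes held 39.2% and 43.3% with differentiation, against 32.0% and 26.0% in controls, and Neat1 and Malat1 held 1.39% and 0.913%, against 6.16% and 7.44%.

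The pair of most counts joined Rps14 to Gm5805, an annotated pseudogene (chr15:81972373-81972897). It had 300 and 477 counts with differentiation, against 246 and 246 in controls, or 442 ± 21.5 against 192 ± 21.8 CPM (SD, n = 2 each). The CPM of a pair is taken over all pair counts and the CPM of a total over all totals, into which a pair enters once for each RNA it joins, so the 2 scales differ. The log2 change was 1.20 (SE 0.21, edgeR adjusted p = 0.00258), with both differentiation libraries well above both controls. Rps9 paired chiefly with RP23-179K7.3, which the gene table did not match, at 178 and 346 counts, against 172 and 182 in controls (1.09, SE 0.23, edgeR adjusted p = 0.0103). That single pair held 92.8% of the counts of Rps9, whose total had a log2 change of 0.82. Pairs and totals were scaled separately. Their log2 changes are therefore not on a common scale, and a higher value for a pair does not mean a steeper rise than its total's.

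Pseudogenes that carry the name of the partner rose in 5 of 12 tested pairs. This compares with 3 of 10 such pairs of large subunit protein RNAs and 8 of 58 of other RNAs. Rps15 with Rps15-ps2 had 171 and 309 counts, against 177 and 159 in controls (log2 change 1.04, SE 0.24, edgeR adjusted p = 0.0158), and Rps26 with Rps26-ps1 had 136 and 228, against 125 and 102 (1.21, SE 0.26, edgeR adjusted p = 0.00998). Rps19 with Rps19-ps6 had 97 and 202 counts, against 85 and 81 (1.36, SE 0.27, edgeR adjusted p = 0.00668). Rps2, a protein of the entry of the messenger RNA channel, paired with Rps2-ps10 at 47 and 110 counts, against 38 and 51 (1.34, SE 0.33, edgeR adjusted p = 0.0232). In each of these 4 pairs the differentiation libraries lay above the controls after scaling. Among those that did not pass, Rpsa with Rpsa-ps10 had 106 and 158 counts, against 122 and 91 (0.85, SE 0.27, edgeR adjusted p = 0.0793).

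The same direction was found with pseudogenes named Gm. Rps20, a protein of the head of the subunit, paired with Gm4332 at 116 and 283 counts, against 137 and 109 in controls (log2 change 1.18, SE 0.28, edgeR adjusted p = 0.0198). Rps24, another gene mutated in human Diamond-Blackfan anaemia, paired with Gm8292 at 105 and 206 counts, against 111 and 123 (0.94, SE 0.25, edgeR adjusted p = 0.0382). The call of Rps24 with Gm8292 was lost in 7 of 13 alternatives. Among them were column totals as the only scaling (edgeR adjusted p = 0.0768), no filter on low counts (0.0802), the table without Gm42418 and Gm26917 pairs (0.0652) and without Neat1 and Malat1 pairs (0.0712).

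Some of these rises had the same counts under more than 1 name. Rps19-ps6 (chr12:110898079-110898588) lies inside Tecpr2, an autophagy gene (chr12:110889243-110972394), and Tecpr2 had the same counts with Rps19 as Rps19-ps6. Rps3a1 had the same 41 and 56 counts, against 24 and 25 in controls, with 1700016D06Rik and with the unmatched RP24-447D19.3 (1.55, SE 0.37, edgeR adjusted p = 0.0195). In all, 8 sets with 16 pairs had identical counts in all 4 libraries. A read that fits both a gene and its near-identical pseudogene, or Rps3a1, Rps3a2 and Rps3a3, which resemble each other, cannot be assigned with certainty, so these pairs are uncertain as contacts between 2 molecules.

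Rises with pseudogenes were also found outside the small subunit. Large subunit protein RNAs had 14 rises among 41 tested pairs with annotated pseudogenes (34.1%, median log2 change 1.09), and RNAs of neither list had 76 among 989 (7.68%, median 0.76), against 9 of 30 (median 0.99) for small subunit RNAs when a pair counts if exactly 1 of its RNAs is annotated as a pseudogene. Counted this way, pairs of the members Rps3a2, Rps3a3 and Rps12l1 come in, because these members are annotated as pseudogenes. With annotated pseudogene partners left out, a setting chosen after seeing the data, 3 contact totals rose in place of 6. Rps19 stayed at a log2 change of 0.97 (edgeR adjusted p = 0.0203) through its pair with Tecpr2. That pair has the same counts as the removed pair with Rps19-ps6. Rps9 stayed at 0.82 (edgeR adjusted p = 0.0154) and Rps3a1 at 0.69 (edgeR adjusted p = 0.0427). Neither had any count with an annotated pseudogene, so the setting took nothing off them and cannot test their rises. Rps14, which had 97.2% of its counts with annotated pseudogenes, came to 0.58 (edgeR adjusted p = 0.501). Rps26, which had 90.1% of its counts with Rps26-ps1, turned to -0.20 (edgeR adjusted p = 0.829). The setting took off nearly all counts of both, so the loss of these calls does not show whether their other contacts changed. The rises also depended on the second control: without it none of the 15 pairs kept its call, with an edgeR adjusted p of 0.0850 for Rps14 with Gm5805 and 0.278 for Rps24 with Gm8292. Without the first control the calls of Rps2 with Rps2-ps10 (edgeR adjusted p = 0.118), Rps24 with Gm8292 (0.159) and Rps3a1 with 1700016D06Rik (0.0718) were lost. Without the second differentiation library those of Rps20 with Gm4332 (edgeR adjusted p = 0.0935), Rps2 with Rps2-ps10 (0.188) and Rps24 with Gm8292 (0.154) were lost.

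**Figure D3:**
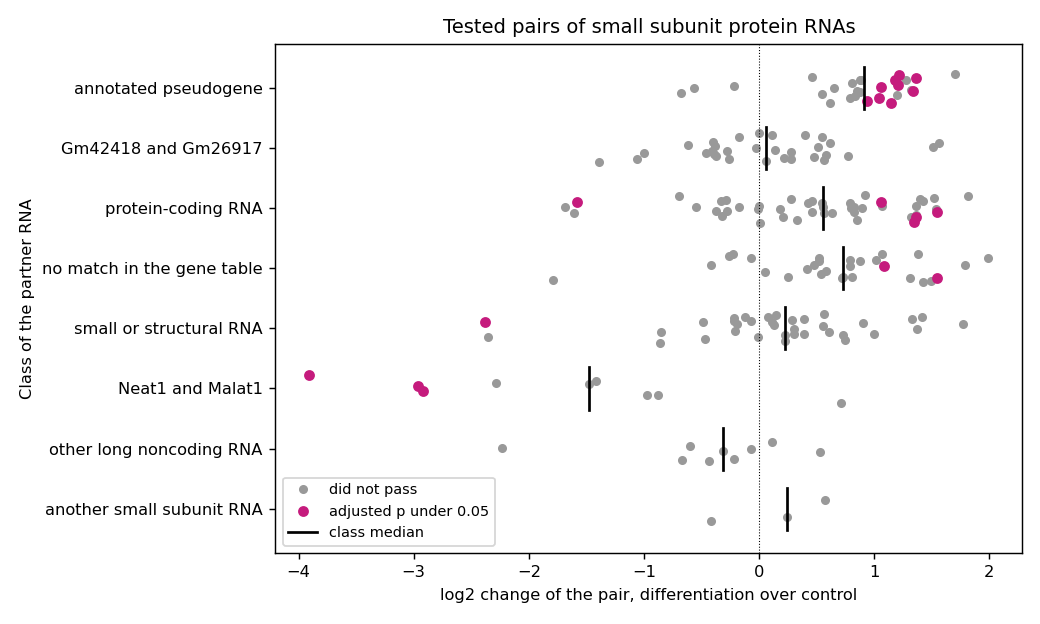
Fitted log2 change, differentiation over control, of the 189 tested pairs of small subunit protein RNAs, by class of the partner. Each point is 1 pair, red points have an edgeR adjusted p under 0.05 and the black bar is the class median, which is 0.91 for annotated pseudogenes and -1.48 for Neat1 and Malat1.

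Neat1, the long noncoding RNA that scaffolds nuclear paraspeckles, gave the steepest falls, with 3 of its 6 tested pairs lower. Rps12 with Neat1 had 8 and 6 counts with differentiation, against 79 and 87 in controls, or 8.56 ± 3.98 against 64.5 ± 2.95 CPM (SD, n = 2 each; log2 change -2.96, SE 0.44, edgeR adjusted p = 6.90e-04). Rps3 with Neat1 had 2 and 2 counts, against 36 and 58 in controls, or 2.38 ± 0.656 against 36.0 ± 7.97 CPM (-3.91, SE 0.61, edgeR adjusted p = 9.75e-04). The groups stood far apart in both pairs, and with 4 counts against 94 the ratio of control over differentiation for Rps3 was 15.9 (exact 95% interval 6.01 to 59.6, counting error only). Both falls kept their call under each of the 12 alternatives run on them, left-out libraries included.

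Other Neat1 pairs did not pass. Rpsa with Neat1 had 2 and 5 counts with differentiation, against 13 and 16 in controls (log2 change -1.48, edgeR adjusted p = 0.221). Rps13 with Neat1 had 1 and 6 counts, against 6 and 13 (-0.88, edgeR adjusted p = 0.559), with groups that overlapped. The median over the 6 pairs was -2.60, and over all 801 tested pairs of Neat1 it was -1.99, with 268 of them lower (33.5%), so the falls were not limited to small subunit RNAs. The contact total of Neat1 itself fell by 2.34 on the log2 scale (SE 0.18), with totals scaled apart from pairs. Together Neat1 and Malat1, a noncoding RNA of nuclear speckles, took 1.39% (Wilson 95% interval 1.08% to 1.80%) and 0.913% (0.718% to 1.16%) of member-pair counts with differentiation, against 6.16% (5.55% to 6.82%) and 7.44% (6.80% to 8.13%) in controls. Malat1 with Rps3 had 10 and 13 counts, against 35 and 32 in controls (-0.98, SE 0.46, edgeR adjusted p = 0.239).

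**Figure D4:**
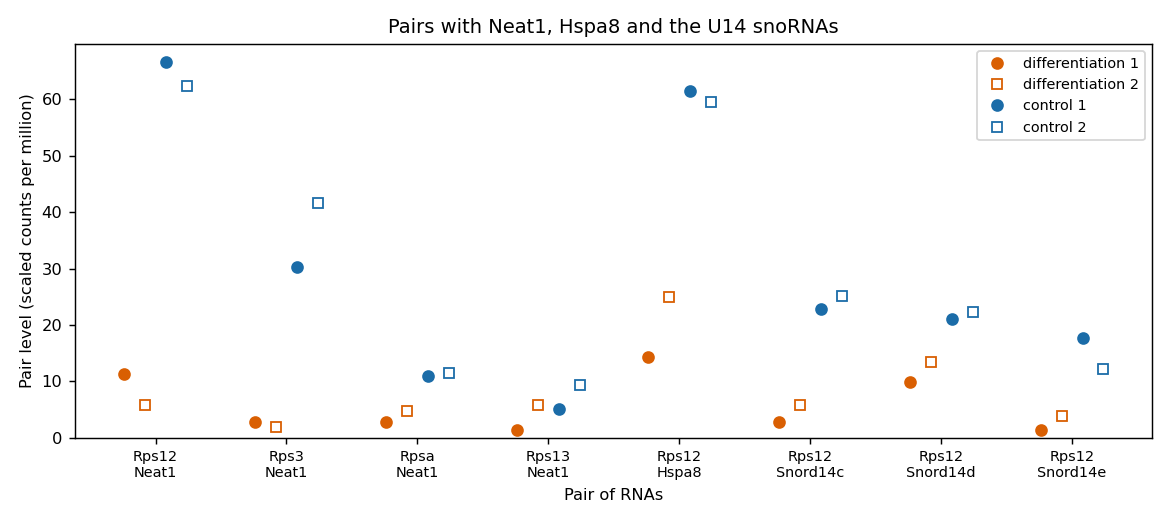
CPM of 4 pairs with Neat1 and of the pairs of Rps12 with Hspa8 and with Snord14c, Snord14d and Snord14e, in each library. Orange points are the differentiation libraries and blue points the controls. Rps12 with Neat1 stands at 11.4 and 5.75 with differentiation, against 66.6 and 62.4 in controls, and Rps13 with Neat1 is the only pair shown whose groups overlap.

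The remaining falls both belonged to Rps12. Rps12 with Hspa8, the gene of a constitutive heat shock chaperone (chr9:40801276-40805202), had 10 and 26 counts with differentiation, against 73 and 83 in controls, or 19.6 ± 7.56 against 60.5 ± 1.40 CPM (SD, n = 2 each; log2 change -1.58, SE 0.38, edgeR adjusted p = 0.0203). Snord14c, a U14 snoRNA, which is needed for the processing of 18S ribosomal RNA, lies inside Hspa8 at chr9:40803583-40803669. Rps12 with Snord14c had 2 and 6 counts, against 27 and 35 in controls (-2.38, SE 0.58, edgeR adjusted p = 0.0216). Both pairs had differentiation libraries below both controls. The Hspa8 call was lost without either control (edgeR adjusted p = 0.0688 and 0.0858), and the Snord14c call without the second control (0.0988) and with DESeq2 (0.0519).

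The counts of Rps12 with Hspa8 were also listed between snoRNAs inside the 2 genes. Hspa8 also holds Snord14d and Snord14e, and the counts of Rps12 with Snord14c, Snord14d and Snord14e summed to 10 and 24 with differentiation, against 73 and 83 in controls, nearly the counts with Hspa8. On the other side, Snord100, a C/D box snoRNA inside Rps12 (chr10:23785754-23785821), had with Hspa8 exactly the counts of Rps12 with Hspa8 in all 4 libraries, and with Snord14c exactly those of Rps12 with Snord14c. Rps12 with Snord14e had 1 and 4 counts, against 21 and 17 (log2 change -2.35, SE 0.71, edgeR adjusted p = 0.0632), and with Snord14d 7 and 14, against 25 and 31 (-0.86, edgeR adjusted p = 0.330).

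Of the 33 genes, 10 contain 19 annotated snoRNA genes, and 13 of these snoRNAs had pairs of their own in the table. Among these were Snord100 in Rps12, Snord14a in Rps13, Snora78 and Snora64 in Rps2, Snord15a and Snord15b in Rps3, Snord73a in Rps3a1, and Gm26448 and Snora62 in Rpsa. The host RNAs had more partners, with a median of 13 against 4 for the 23 RNAs without a snoRNA. Rps3 had 63 partners, Rps12 46, Rpsa 24 and Rps13 13. Leaving out hub RNAs, 71 of 247 partner entries of the host RNAs (28.7%) were a snoRNA or a gene that holds one, against 1 of 48 (2.08%) for the RNAs without one. Among other protein-coding RNAs the shares were 11.8% for snoRNA hosts and 4.70% for the rest. A snoRNA and the gene that holds it can be separate entries with the same counts, as Snord87 and Snhg6 with Rps3. Entries are therefore not all separate contacts. The share also differed between hosts: Rps3 alone gave 26 of the 71 entries, and Rps13 gave 0 of its 9.

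**Figure D5:**
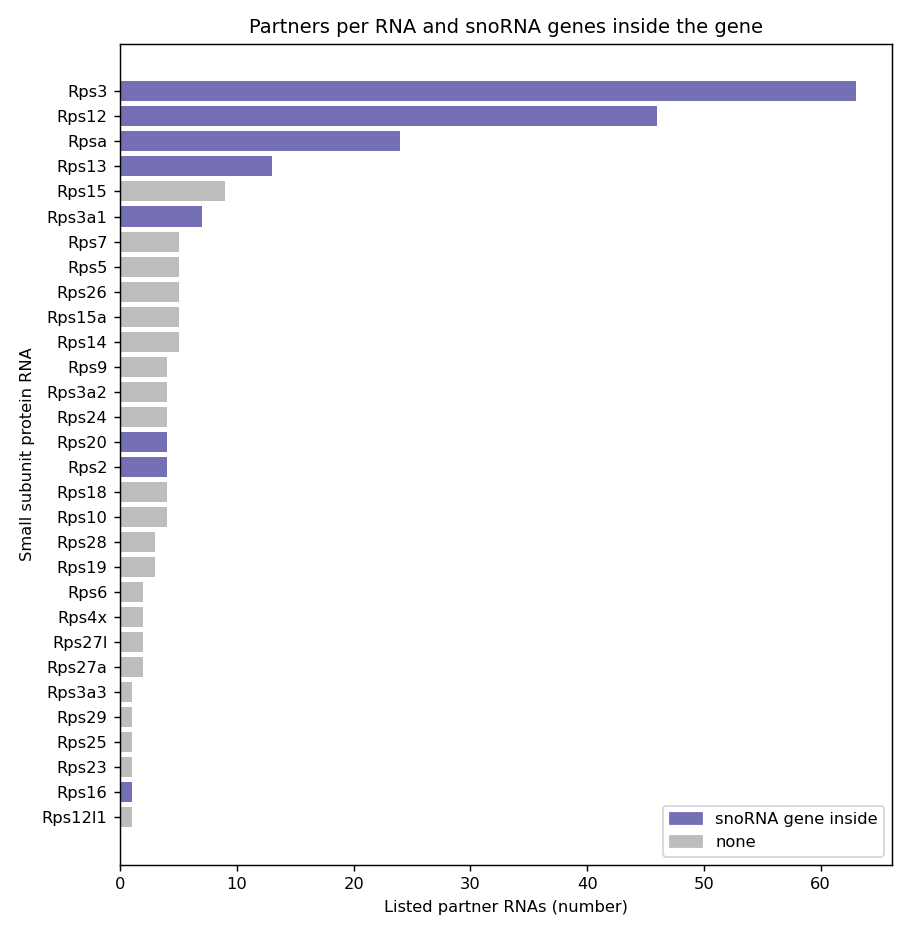
Number of listed partner RNAs of 30 of the 33 small subunit protein RNAs. Purple bars are genes with an annotated snoRNA gene inside and grey bars those without, and of the RNAs shown Rps3, Rps12 and Rpsa lead with 63, 46 and 24 partners.

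All 30 partners of Snord100 were also partners of Rps12. Counts that inner snoRNAs held with the partners of their host were taken, for each partner, only up to the host's own count. These shared counts came to 80.5% (Wilson 95% interval 76.8% to 83.7%) and 83.2% (80.2% to 85.9%) of the contact total of Rps12 with differentiation, against 82.1% (79.4% to 84.6%) and 87.1% (84.9% to 89.0%) in controls. For Rps3, through Snord15a and Snord15b, guides of ribosomal RNA modification, they came to 63.5% and 65.6%, against 69.2% and 70.7%. Over all 4 libraries they made up 89.5% of the total of Rps13, through the U14 snoRNA Snord14a, 63.8% of Rps2, 14.9% of Rpsa and 6.62% of Rps3a1. For Rps2 the limit mattered. Snora78 with Gm42418 had 50 and 59 counts with differentiation, against 41 and 47 in controls. Rps2 with Gm42418 had only 8 and 7, against 9 and 8, so not all counts of that snoRNA were listed under its host. Most contacts listed under Rps12, Rps13 and Rps3 were thus also listed under a snoRNA of the same gene, and reads from the intron and from the host transcript cannot be told apart in these counts.

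With those shared counts taken off, a setting chosen after seeing the data, the differences of Rps12 and Rps3 shrank. Those of Rpsa and Rps3a1 did not, with log2 changes of 0.32 and 0.75, against 0.30 and 0.69 before. Rps12 came to a log2 change of -0.09 (SE 0.23, edgeR adjusted p = 0.849) and Rps3 to -0.11 (SE 0.18, edgeR adjusted p = 0.761). Rps13 turned to 0.36 (SE 0.56, edgeR adjusted p = 0.734). Rps2 now passed, at 1.05 (edgeR adjusted p = 0.0394). What was left of Rps2 was only its pair with Rps2-ps10, at 47 and 110 counts, against 38 and 51 in controls. This pass therefore repeats the rise of that pair given above. In all, 8 totals rose in place of 6.

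The fall of Rps12 with Neat1 was likewise seen in the counts of its snoRNA. Snord100 with Neat1 had 3 and 6 counts with differentiation, against 57 and 67 in controls. For Rps3 this was less clear. Snord15a with Neat1 had 2 and 2 counts, against 5 and 26, a gap that rested mainly on the second control. The contact total of Snord100 had a log2 change of -0.39 (edgeR adjusted p = 0.131).

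Contacts between 2 small subunit RNAs were listed under their snoRNAs too. Rps12 with Rps3 had 11 and 10 counts with differentiation, against 10 and 17 in controls (log2 change 0.24, edgeR adjusted p = 0.872), with groups that overlapped, and Rps12 with Snord15a and Snord15b together had 11 and 10, against 10 and 16. Rps12 with Rpsa, at 5 and 1 counts against 2 and 2, was too low to test.

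Other structural RNAs were shared partners without a passed change. Rps3 with Rmrp, the RNA of RNase MRP, had 17 and 17 counts with differentiation, against 4 and 11 in controls (log2 change 1.77, SE 0.58, edgeR adjusted p = 0.0879). Both differentiation libraries lay above both controls. Rps12 with Rn7s1, a 7SL RNA of the signal recognition particle, had 66 and 70 counts, against 68 and 71 (0.56, edgeR adjusted p = 0.315).

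Gm26917 and Gm42418 were listed with 23 and 24 of the 33 RNAs. Gm26917 took 9.59% (Wilson 95% interval 8.74% to 10.5%) and 9.14% (8.50% to 9.83%) of member-pair counts with differentiation, against 14.9% (14.01% to 15.9%) and 15.7% (14.8% to 16.6%) in controls. Its pair with Rps3 had 56 and 90 counts, against 160 and 168 in controls (log2 change -0.62, SE 0.26, edgeR adjusted p = 0.178). None of its 14 tested pairs passed by edgeR or DESeq2 and 1 was lower at an unadjusted p under 0.05, with a median of -0.33 against -0.23 over its 5587 tested pairs in the table. The 17 tested pairs of Gm42418 had a median of 0.14 against 0.05 over its 6261 tested pairs. Slc9a9, a sodium and proton exchanger gene listed with 16 of the 33 RNAs, had a median of 1.07 over its 10 tested pairs with them and of 0.03 over its 4756 tested pairs, and the lowest adjusted p among the 10 was 0.129.

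Genes that work with the small subunit were described by the contact totals of lists of known members, read against the 5.44% of all RNAs tested that rose and the 6.75% that fell. Of 42 tested factors of small subunit assembly 3 rose (7.14%), with a median log2 change of 0.19: Fbl, the snoRNA-guided methyltransferase of ribosomal RNA (1.15, SE 0.16, edgeR adjusted p = 0.00106), Mphosph10 of the U3 particle (1.96, SE 0.45, edgeR adjusted p = 0.0159) and Ltv1, an export and maturation factor (1.21, SE 0.32, edgeR adjusted p = 0.0290). Of 31 genes listed as initiation factors 2 rose (6.45%) and 1 fell (3.23%): Eif4e, which binds the cap (1.00, edgeR adjusted p = 0.00530), Eif5a, listed by its name only (0.75, edgeR adjusted p = 0.0126) and the fall of Eif4g3 (-0.59, edgeR adjusted p = 0.0233). Of 21 regulators of S6 and of terminal oligopyrimidine messenger RNAs 2 rose (9.52%) and 1 fell (4.76%): Larp1, which binds these tracts (0.68, edgeR adjusted p = 0.0124), Pabpc1, which binds poly(A) tails (1.07, edgeR adjusted p = 0.00106) and the fall of the kinase gene Rps6ka2 (-1.11, edgeR adjusted p = 7.60e-04). These shares lie near those of all RNAs and so are no result about the 3 lists. Of 46 large subunit protein RNAs 9 rose (19.6%) and 3 fell (6.52%), with a median of 0.50, among them the rises of Rplp1 (1.06), Rpl36 (1.12) and Rpl18 (0.76). Of 20 mitochondrial small subunit protein RNAs 11 were tested, with a median of 0.52, and none of them passed in either direction.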

How the data were processed

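The deposited table gave, per the labels, RIC-seq results of 4 libraries as whole-number counts of chimeric reads per RNA pair, not normalized by the authors. Per the submitters' processing notes, STAR and GRCm38 were used in a role not stated. How chimeric reads, duplicates, strand and overlapping genes were handled is not given in the sources used here. Listed pairs had at least 1 count in all 4 libraries, so pairs lost in a group were not analysed here. All 33 members, and 12030 of all RNA names by symbol and 516 by synonym, matched RefSeq's GRCm38.p6 table, which gave coordinates and gene classes, while 772 names stayed unmatched. The members and lists were chosen with earlier results of these data known.

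Counts per pair, and summed per RNA (a pair within 1 RNA once), were tested over the whole table in edgeR 4.0.16 (quasi-likelihood F test, R 4.3.3, limma 3.58.1), TMM scaling, filterByExpr (minimum count 5, minimum total 10) and Benjamini-Hochberg adjustment, two-sided, at 0.05. Groups came from the genotype label. The fitted coefficient of variation between libraries was 24.9% for pairs and 18.7% for totals, and the test was tested on simulated data. Alternatives were RLE scaling, column totals, other filters, a replicate block, DESeq2 1.42.0, left-out libraries, hub, Neat1 and Malat1, identical, within-RNA or member-with-member pairs, and a threshold of 0.1. Leaving out pseudogene partners or counts shared with inner snoRNAs was chosen after seeing the data. Named were RNAs and pairs past the threshold, those of most counts, the 3 highest and 3 lowest changes, Rps3, Rpsa and paralogs, member-with-member pairs, the partners of most counts and up to 3 called genes per list. Snord14d, Snord14e, inner snoRNAs, further Neat1 and Malat1 pairs, Rmrp, Rn7s1, Slc9a9, Rps6, Rps2, Rps15 and Rps24 were named after their values were seen. Values of some members, counted in the totals given, are not reported here.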

Additional observations from a re-analysis of the deposited data

How the results depend on the processing

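The number of small subunit RNAs with a higher contact total, 6, was 10 with the replicate block, 11 with between-RNA pairs only, 3 without annotated pseudogene partners and 0 to 13 with 1 library left out (0 without either control, 13 without the first differentiation library). No contact total was called lower under any alternative. The number of pairs that rose, 15, was 17 with the replicate block and 0 to 23 with 1 library left out (0 without the second control, 23 without the first differentiation library). The number that fell, 5, was 7 with the replicate block, 2 without Neat1 and Malat1 pairs, which that setting removes, and 3 to 6 with 1 library left out. Same-numbered libraries are not stated to be related. Over the totals of all 10993 RNAs tested, the difference between the 2 differentiation libraries correlated with that between the controls at r = 0.14, which does not settle whether the numbers pair the libraries.

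Among the totals and pairs rerun, changes of sign were found only in values that had not passed, except for Rps26. Without pseudogene partners the total of Rps26 was -0.20, that of Rps15 -0.31 against 0.55, and that of Rps18 0.76 against -0.25. The total of Rps13 was 0.36 with counts of inner snoRNAs taken off, and that of Rps27l was -0.40 without the second differentiation library (left-out libraries, -0.40 to 0.77). The total of Rps15a was 0.038 without Gm42418 and Gm26917 pairs and 0.0084 without the second control (left-out libraries, -1.06 to 0.0084). With 1 library left out, Rps12 with Rps3 ran between -0.12 (without the first differentiation library) and 0.58. Beyond removal of the counts named, the cause was not tested. Column totals as the only scaling moved the median change of all RNA totals by 0.16 and of all pairs by -0.14.

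Fits on 3 libraries assume that the single library of a group varies like the other group's. Depth limits the pairs of few counts, of which 160 of the 349 were too low to test.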
